A study of Homo sapiens with 12 samples.

Results

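The genes described here are 9 genes used as markers or regulators of luminal urothelial differentiation (PPARG, GATA3, FOXA1, ELF3, GRHL3, UPK1A, UPK1B, UPK2 and UPK3A) and FABP4, a fatty acid binding protein. They were taken by gene symbol from a count table of 60603 genes, and all 10 were found in it. The set was assembled with earlier results of these libraries in view. FABP4 was selected on its measured counts, namely the difference between the lines in its inducer response, so its values are given as a description with no test.

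Poly(A) RNA was sequenced in 12 libraries of T24, a human bladder carcinoma cell line in long use. The 4 groups of 3 libraries were WT cells without treatment, WT cells with 5-Ad-IAA, NS1 cells without treatment and NS1 cells with 5-Ad-IAA. The series concerns AlissAID, in which an auxin derivative brings an untagged cellular protein to a ubiquitin ligase for degradation, and 5-Ad-IAA is here called the inducer. The labels do not say what NS1 stands for, which components the NS1 and WT cells carry, whether NS1 is 1 clone, or whether replicates were separate cultures. The p-values therefore measure the spread between these libraries, which may be technical. The dose and the time of treatment are not used here.

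The lining of the bladder, the urothelium, matures from basal cells toward luminal cells that face the urine. PPARG, a nuclear receptor that pairs with RXRA and binds fatty acid derivatives, works with the transcription factors GATA3, FOXA1, ELF3 and GRHL3 in luminal differentiation. The uroplakins UPK1A, UPK1B, UPK2 and UPK3A are the membrane proteins that form the plaques on the surface of the outermost luminal cells. FABP4 carries fatty acids in the cytoplasm and is a well-known target gene of PPARG in fat cells, also used as a reporter of PPARG activity in urothelial cells.

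Library totals ran from 10593934 to 20266996 counts, and replicate 1 was the deepest library in each of the 4 groups. Levels are given as CPM, the depth-scaled count of a gene, with library totals scaled by edgeR's TMM factors. Fold changes come from 1 edgeR quasi-likelihood model of all 12 libraries over 17775 genes that passed a filter on low counts, with p-values adjusted over all of them by the Benjamini-Hochberg method. Genes with an adjusted p under 0.05 are said to be called. A gene was treated as below detection in a group where no library held more than 3 counts, a floor that corresponds to 0.141 to 0.29 CPM and covers counting error only.

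Of the 10 genes, 6 passed the filter and 4 were too low to test. UPK3A had 0 counts in all 12 libraries, and UPK1B had 0 to 2 counts per library and 8 in all, so both were below detection in this line. UPK1A had 0 to 5 counts per library and was below detection in untreated WT and untreated NS1 cells. GRHL3 had 0 to 27 counts and was below detection in untreated NS1 cells. Among the 17775 tested genes, the mean CPM over all libraries stood at percentile 82.4 for PPARG, 72.9 for GATA3, 68.8 for FOXA1, 33.2 for FABP4, 28.2 for ELF3 and 14 for UPK2. PPARG, GATA3 and FOXA1 thus lay in the upper part of the tested genes and ELF3 in the lower part, while of the 4 uroplakins UPK2 alone exceeded 3 counts in each library.

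Divided by the merged exon length, PPARG, GATA3 and FOXA1 had the 3 highest means in each group, but the range of FABP4 overlapped those of GATA3 and FOXA1 in untreated NS1 cells. In untreated WT cells PPARG was at 11.8 ± 4.3 CPM per kilobase, GATA3 at 9.59 ± 4.33, FOXA1 at 6.89 ± 2.6, FABP4 at 3.95 ± 0.768, UPK2 at 1.68 ± 0.165 and ELF3 at 0.296 ± 0.184 (SD, n = 3 each). The ranges of neighbours among PPARG, GATA3 and FOXA1 overlapped, with replicate 1 highest for each. Within each untreated WT library PPARG was above GATA3, and GATA3 above FOXA1. In treated NS1 cells GATA3 was at 22.8 ± 6.78 CPM per kilobase and PPARG at 20.5 ± 2.57, again within their spread, with FOXA1 at 13.5 ± 1.66, FABP4 at 2.35 ± 0.248, ELF3 at 1.88 ± 1.22 and UPK2 at 1.72 ± 0.0233 (SD, n = 3 each). In untreated NS1 cells PPARG was at 15.9 ± 1.27, FOXA1 at 9.18 ± 0.428, GATA3 at 8.99 ± 0.964 and FABP4 at 8.2 ± 1.04 CPM per kilobase (SD, n = 3 each). The range of FABP4 overlapped those of FOXA1 and GATA3, but within each of these libraries FABP4 was below both. With the longest transcript as the length, FABP4 was at 12.2 CPM per kilobase there and GATA3 at 9.89, so their order turned. On that scale PPARG was at 26.3 CPM per kilobase in untreated WT cells, further above GATA3 at 10.6.

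The first comparison was of NS1 cells with and without the inducer. GATA3 rose 2.53-fold and ELF3 rose 8.8-fold, FABP4 was 3.49-fold lower, and PPARG, FOXA1 and UPK2 were higher in each treated library than in any untreated one without passing the test. Of the 9 genes other than FABP4, 5 could be tested and 2 were called, both higher. Over all genes 6.15% were called in this comparison and 2.76% were called higher. The median log2 fold change of the 5 tested genes was 0.56, against 0.006 over all genes. All 5 were higher with no overlap between the groups, which held in that direction for 13.2% of all genes. For UPK2 the gap between the groups lay within counting error. In these bulk libraries, a change in the share of cells that express a gene and a change in RNA per cell cannot be told apart.

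PPARG (ENSG00000132170.21, chromosome 3) stood at 78.5, 67.2 and 71.2 CPM in untreated NS1 replicates 1, 2 and 3 and at 106, 85.5 and 86.9 CPM in the treated ones. Each treated library was above each untreated one, and within replicate numbers the treated level was 1.35, 1.27 and 1.22 times the untreated level. The log2 fold change of 0.36 (SE 0.26) did not pass edgeR's test (adjusted p = 0.483). Because libraries of a line with the same replicate number deviated alike, most of all in replicate 1, the model was also fitted with a replicate block within each line. There PPARG was called (edgeR adjusted p = 0.00158). That fit called 25.9% of all genes.

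GATA3 (ENSG00000107485.18, chromosome 10), a zinc finger transcription factor that marks luminal urothelium, stood at 34.7, 28.6 and 29.3 CPM in the untreated NS1 libraries. With the inducer it stood at 105, 60.3 and 69.8 CPM. The groups did not overlap, and the treated level was 3.01, 2.11 and 2.38 times the untreated level of the same replicate number. The log2 fold change was 1.34 (SE 0.32, edgeR adjusted p = 0.0281), with the same direction in 3 of 3 pairs. This call was lost when 1 library was left out, for untreated NS1 replicate 1 (adjusted p = 0.0618), 2 (0.097) or 3 (0.0985) and for treated NS1 replicate 1 (0.0701) or 3 (0.0652).

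FOXA1 (ENSG00000129514.6, chromosome 14), a forkhead factor that opens chromatin for other regulators, stood at 38.1, 36.9 and 34.7 CPM without the inducer and at 58.5, 56.9 and 46.3 CPM with it. The groups did not overlap, and the pair ratios were 1.54, 1.54 and 1.33. The log2 fold change of 0.56 (SE 0.24) did not pass the test (edgeR adjusted p = 0.202). FOXA1 was called with 1 replicate block per number over both lines (adjusted p = 0.0457, in a fit that called 13.6% of all genes), with the block within each line (0.000343) and when the NS1 groups alone were fitted (0.0308).

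ELF3 (ENSG00000163435.16, chromosome 1), an ETS family factor restricted to epithelia, was the member with the largest inducer response among those tested, and its replicates disagreed most. The untreated NS1 libraries stood at 0.247, 2.62 and 1.83 CPM and the treated ones at 3.48, 17.6 and 19.5 CPM. Replicate 1 was low in both groups, with 4 and 67 counts, but the lowest treated library was still above the highest untreated one. The pair ratios were 14.1, 6.74 and 10.7, and the log2 fold change was 3.14 (SE 0.72, edgeR adjusted p = 0.0223), higher in 3 of 3 pairs. The call was lost without untreated NS1 replicate 1 (adjusted p = 0.0687) or 3 (0.0732), without treated NS1 replicate 2 (0.0713) or 3 (0.0864), and when the NS1 groups alone were fitted (0.0586). With untreated NS1 replicate 2 left out the log2 fold change was 3.85, and over the 12 single omissions it ran from 2.56 to 3.85. In GENCODE, 664 of the 7191 exon bases of ELF3 overlap the antisense gene ELF3-AS1 and as many overlap AL691482.3 on the same strand, and the use of strand in counting is not given in the sources used here.

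GRHL3 (ENSG00000158055.15, GRCh38 chr1:24319322-24364482), a grainyhead factor of differentiating surface epithelia, had 1, 1 and 2 counts in the untreated NS1 libraries and 27, 6 and 8 in the treated ones. All 3 treated libraries were above the floor and none of the untreated ones was. The treated libraries stood at 1.4, 0.524 and 0.664 CPM, so replicate 1 raised their mean of 0.864 CPM. That mean was 3.74 times the untreated group taken at 3 counts in each library, a ratio given without a test. GRHL3 had 10, 0 and 1 counts in untreated WT cells and 9, 2 and 0 in treated WT cells, so that replicate 1 held most of its WT reads.

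**Figure D1:**
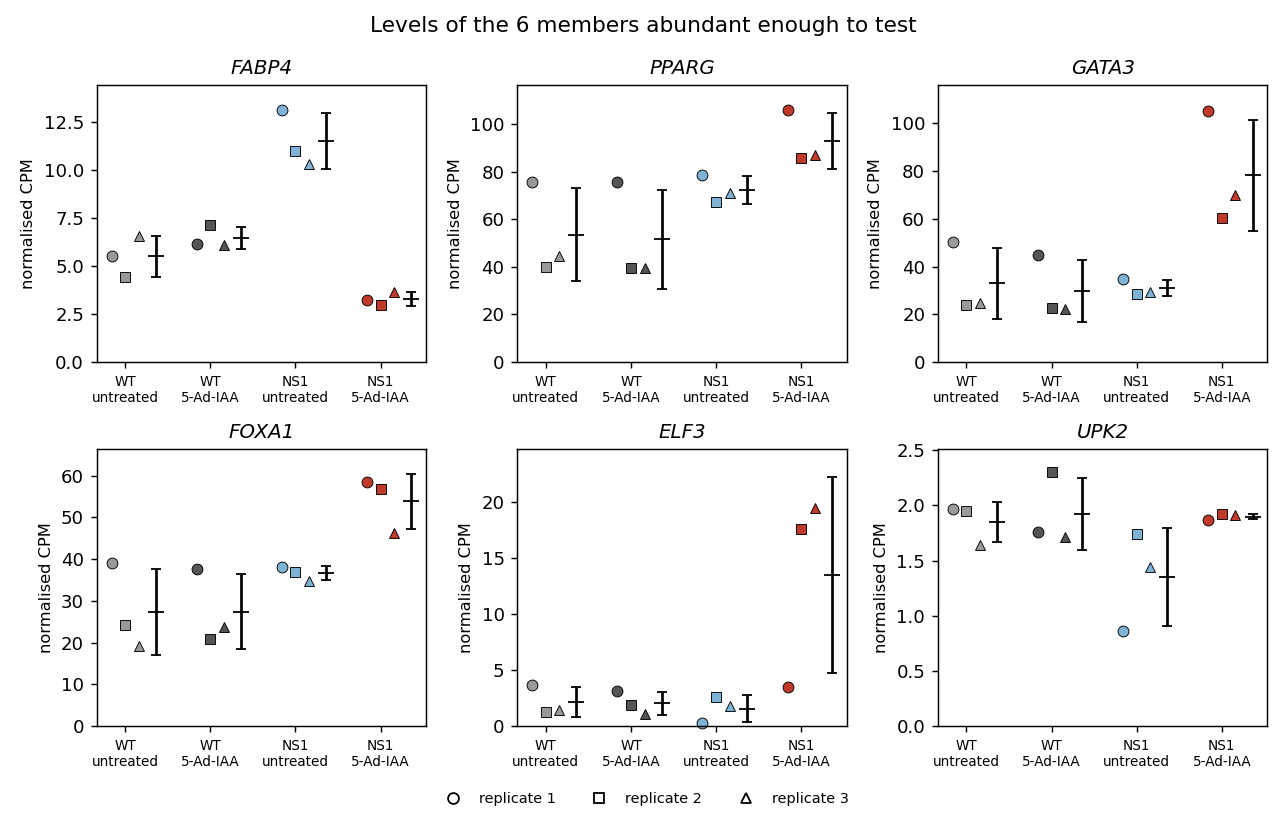
Normalised CPM of the 6 tested genes in each library (points, by replicate number) for the 4 groups on the horizontal axis, with the mean and SD of 3 libraries. Treated NS1 libraries hold the highest GATA3 and FOXA1 means, 78.2 and 53.9 CPM, and the lowest FABP4 mean, 3.28 CPM.

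UPK2 (ENSG00000110375.3, chromosome 11), which pairs with UPK1A in the assembly of urothelial plaques, had 14 to 42 counts per library. Its untreated NS1 libraries stood at 0.864, 1.74 and 1.44 CPM and the treated ones at 1.87, 1.92 and 1.91 CPM. The treated libraries were all higher, with a log2 fold change of 0.51 (SE 0.27, 95% interval -0.07 to 1.09) that did not pass the test (edgeR adjusted p = 0.317). Replicate 2 had 24 counts untreated and 22 treated, so the gap between the groups lay within counting error. In GENCODE, 54 of its 1106 exon bases overlap BCL9L on the other strand, and reads there could have been counted for either gene.

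UPK1A (ENSG00000105668.7, GRCh38 chr19:35666516-35678483) had 0 to 1 counts in the untreated NS1 libraries and 1 to 4 in the treated ones, too few to compare, and 258 of its 1366 exon bases overlap UPK1A-AS1. UPK1B (ENSG00000114638.8, chromosome 3), the tetraspanin partner of UPK3A, had at most 2 counts in any library, which allows no statement about a change. UPK3A (ENSG00000100373.10, chromosome 22) was not detected at this depth, where 3 counts correspond to at most 0.29 CPM.

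**Figure D2:**
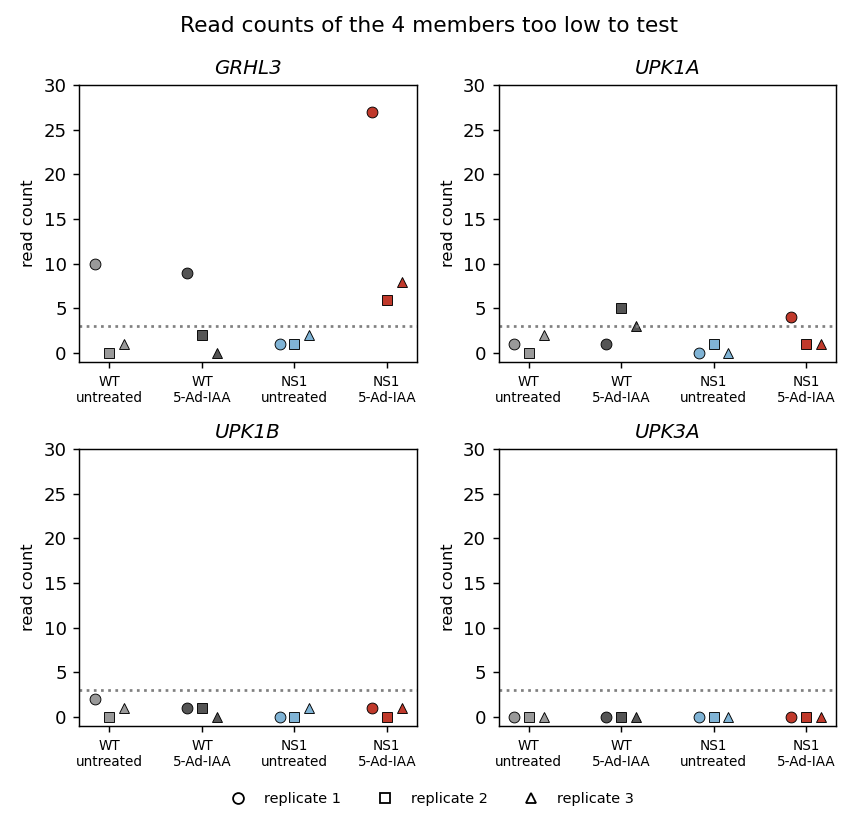
Read counts of the 4 genes too low to test, GRHL3, UPK1A, UPK1B and UPK3A, in each of the 12 libraries by group, with a dotted line at the floor of 3 counts. GRHL3 in treated NS1 cells is above the line in all 3 libraries, and UPK1B and UPK3A lie under it in all 12.

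FABP4 (ENSG00000170323.8, GRCh38 chr8:81478419-81483263) was lower with the inducer in NS1 cells, where GATA3 and ELF3 rose. It stood at 13.1, 11 and 10.3 CPM in the untreated NS1 libraries and at 3.22, 2.97 and 3.65 CPM in the treated ones, from 34 to 212 counts per library over the series. The groups were far apart, and treated libraries held 0.246, 0.27 and 0.355 times the untreated level of the same replicate number. The log2 fold change was -1.80 (SE 0.18), or 3.49-fold lower. In WT cells FABP4 stood at 5.53, 4.43 and 6.57 CPM without and at 6.13, 7.12 and 6.12 CPM with the inducer, with overlapping groups and a log2 fold change of 0.23 (SE 0.17).

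The 4 FABP4 means can be ordered. Untreated NS1 cells were highest at 11.5 ± 1.46 CPM, treated WT cells followed at 6.46 ± 0.575, untreated WT cells stood at 5.51 ± 1.07, and treated NS1 cells were lowest at 3.28 ± 0.347 (SD, n = 3 each). Only the 2 WT groups overlapped. Without the inducer NS1 cells were 2.09-fold above WT cells, and with it they were 1.96-fold below, so the order of the lines turned. Across replicate numbers, replicate 1 of FABP4 held 0.925 to 1.23 times the mean of replicates 2 and 3 in the 4 groups.

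**Figure D3:**
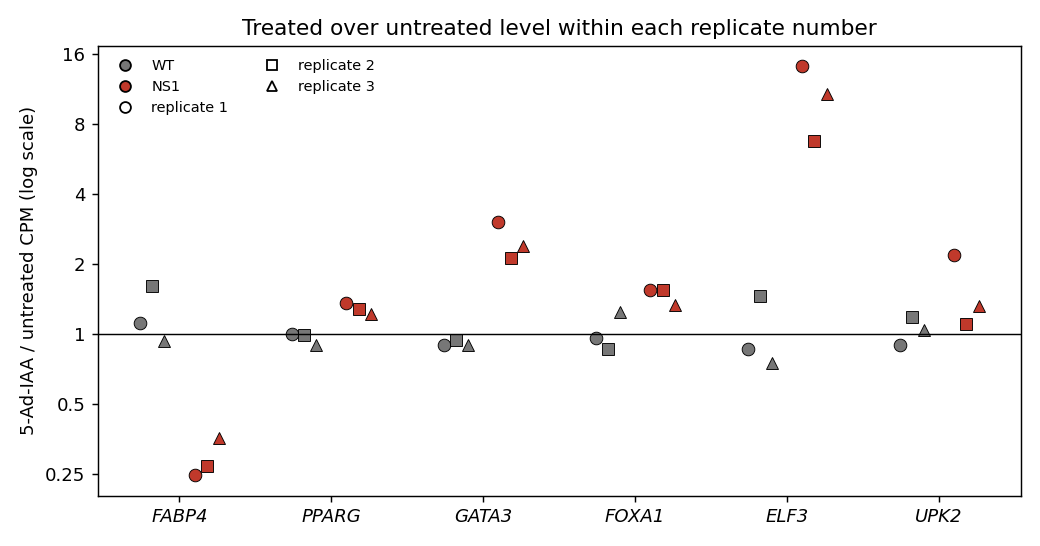
Ratio of treated to untreated normalised CPM within each replicate number (points), on a log axis, for the 6 tested genes in NS1 and WT cells. FABP4 ratios in NS1 cells are 0.246 to 0.355, GATA3 ratios are 2.11 to 3.01 and ELF3 ratios are 6.74 to 14.1, while WT ratios of GATA3 are 0.895 to 0.936.

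In WT cells none of the 5 tested genes other than FABP4 was called with the inducer, although the interval of ELF3 was wide. PPARG stood at 75.8, 40 and 44.4 CPM without and 75.6, 39.5 and 39.5 CPM with it, and its log2 fold change was -0.05 (SE 0.26, 95% interval -0.61 to 0.51). GATA3 stood at 50.1, 24 and 24.7 CPM without and 44.9, 22.5 and 22.2 CPM with it, a log2 fold change of -0.14 (SE 0.32, 95% interval -0.84 to 0.55). The treated and untreated WT libraries of 1 replicate number were nearly level, whereas replicate 1 lay above the others.

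FOXA1 stood at 39, 24.2 and 19.1 CPM in untreated and 37.6, 20.8 and 23.7 CPM in treated WT cells, a log2 fold change of -0.01 (SE 0.25, 95% interval -0.54 to 0.52). ELF3 stood at 3.65, 1.28 and 1.45 CPM and at 3.13, 1.85 and 1.08 CPM, a log2 fold change of -0.09 (SE 0.73, 95% interval -1.66 to 1.49). UPK2 stood at 1.97, 1.95 and 1.64 CPM and at 1.76, 2.3 and 1.71 CPM, a log2 fold change of 0.04 (SE 0.26, 95% interval -0.51 to 0.59). The groups overlapped for all 5 genes, as they did for all but 3.41% of all genes, and the edgeR adjusted p was 1 for each of them. Over all genes edgeR called 0%, with 94 genes at an unadjusted p under 0.05, and DESeq2 also called 0 genes.

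WT replicate 1 held 1.8 and 1.91 times the mean of the other replicates for PPARG without and with the inducer. The same ratios were 2.06 and 2.01 for GATA3, 1.8 and 1.69 for FOXA1 and 2.68 and 2.14 for ELF3. In NS1 cells the ratios for ELF3 were 0.111 and 0.188, so that ELF3 in replicate 1 was high in WT cells and low in NS1 cells. UPK2 had WT ratios of 1.09 and 0.876. The labels give no batch, and the values without replicate 1 are given beside the comparisons between lines.

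The lines were next compared without the inducer, and none of the 5 tested genes other than FABP4 was called. Over all genes, 12.5% were called. PPARG was 1.35-fold and FOXA1 1.32-fold higher in NS1 cells, with log2 fold changes of 0.43 (SE 0.26, edgeR adjusted p = 0.311) and 0.40 (SE 0.24, adjusted p = 0.317). GATA3 had a log2 difference of -0.11 (SE 0.32, adjusted p = 0.871), ELF3 of -0.58 (SE 0.78, adjusted p = 0.681) and UPK2 of -0.48 (SE 0.27, adjusted p = 0.266), with overlapping groups for all 5, where 31% of all genes had none. Without replicate 1, PPARG and FOXA1 were called higher in NS1 cells at 0.71 (adjusted p = 0.000572) and 0.72 (adjusted p = 0.00577), and the differences of GATA3 and ELF3 turned to 0.25 and 0.74. That fit called 3466 genes in all, against 2222 with all libraries.

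With the inducer, 4 regulators were higher in NS1 than in WT cells, and UPK2 was level. The 4 called genes are 4 of 5 tested, against 28.2% of all genes called and 13.6% called higher, and the median log2 fold change of the 5 was 0.97 against -0.004 over all genes. ELF3 was 6.26-fold higher (log2 2.65, SE 0.67, edgeR adjusted p = 0.0105), GATA3 2.6-fold (1.38, SE 0.32, adjusted p = 0.00638), FOXA1 1.96-fold (0.97, SE 0.24, adjusted p = 0.0099) and PPARG 1.79-fold (0.84, SE 0.26, adjusted p = 0.0281). No NS1 library of these 4 genes lay at or below a WT library, which in that direction held for 21.2% of all genes. This comparison and the inducer comparison share the treated NS1 libraries.

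The calls of ELF3, GATA3 and FOXA1 held when any 1 of the 12 libraries was left out. Without replicate 1 in all groups all 4 genes were called, with ELF3 at 3.62 (adjusted p = 6.47e-07), GATA3 at 1.54 (1.46e-06), FOXA1 at 1.22 (7.45e-05) and PPARG at 1.13 (8.2e-06). All 4 calls were lost without replicate 2 (adjusted p 0.063 for GATA3, 0.138 for ELF3, 0.169 for FOXA1 and 0.179 for PPARG) and without replicate 3 (0.0889, 0.193, 0.0654 and 0.207), where ELF3 was at 2.03. The calls over all genes fell as well, from 5007 with all libraries to 1632 without replicate 2 and 2127 without replicate 3. PPARG was no longer called without treated NS1 replicate 1 (adjusted p = 0.0798) or without treated WT replicate 2 or 3 (0.113 each), nor with library totals in place of TMM scaling (0.0575). UPK2 stood at 1.9 ± 0.0258 CPM in treated NS1 and 1.92 ± 0.327 CPM in treated WT cells (SD, n = 3 each), a log2 difference of -0.02 (SE 0.26, 95% interval -0.57 to 0.54).

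**Figure D4:**
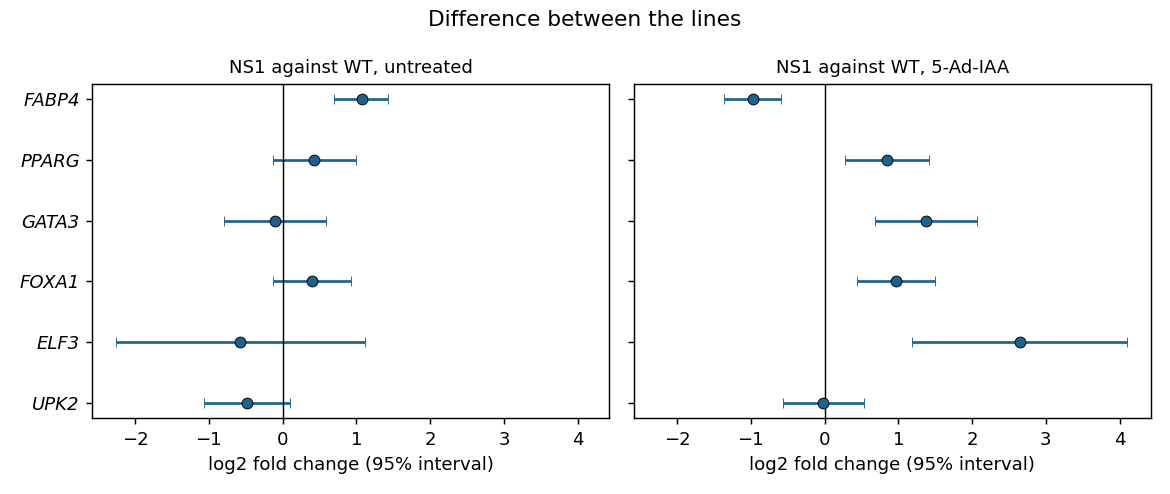
Log2 fold change of NS1 against WT cells with its 95% interval for the 6 tested genes, without and with the inducer. ELF3, GATA3, FOXA1 and PPARG lie above 0 with the inducer at 2.65, 1.38, 0.97 and 0.84, and their intervals without it include 0. Both intervals of UPK2 include 0. FABP4 lies at 1.07 without and at -0.97 with the inducer. It was chosen on its values in these libraries, so its intervals are a description and no test.

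The interaction asks whether the inducer response of NS1 cells differed from that of WT cells. Over all genes it was called for 0.0225%, and for none of the 5 tested genes other than FABP4, although all 5 had a positive log2 interaction. ELF3 was at 3.22 (SE 1.02, edgeR adjusted p = 0.19), GATA3 at 1.49 (SE 0.45, adjusted p = 0.172), FOXA1 at 0.57 (SE 0.34, adjusted p = 0.568), UPK2 at 0.47 (SE 0.37, adjusted p = 0.705) and PPARG at 0.41 (SE 0.37, adjusted p = 0.751). FABP4 was at -2.04 (SE 0.25), the value it was chosen for.

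Pairing by replicate number changed these calls. With a replicate block within each line GATA3 (adjusted p = 1.41e-05), ELF3 (2.66e-05), FOXA1 (0.0103) and PPARG (0.0132) were called, in a fit that called 14% of all genes. With 1 block per number over both lines only GATA3 was called (adjusted p = 0.00938, ELF3 0.129), where 3.57% of all genes were. DESeq2 without a block called GATA3 as well (adjusted p = 0.0357). Within replicate numbers, GATA3 and PPARG were above the untreated level in 3 of 3 NS1 pairs and below it in 3 of 3 WT pairs. For PPARG the WT ratios of 0.998 and 0.986 in replicates 1 and 2 were nearly level.

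The promoters of the members differ in base composition, and 3 are printed to show the range from the strongly responding ELF3 to FOXA1 and the undetected UPK1B. Each is the 250 bases before the RefSeq start on GRCh38.p14, read 5′ to 3′ on the gene's strand, with CG dinucleotides in capitals. ELF3 lies at chr1:202010337-202010586 (plus strand), FOXA1 at chr14:37595250-37595499 (minus strand) and UPK1B at chr3:119173348-119173597 (plus strand).
ELF3: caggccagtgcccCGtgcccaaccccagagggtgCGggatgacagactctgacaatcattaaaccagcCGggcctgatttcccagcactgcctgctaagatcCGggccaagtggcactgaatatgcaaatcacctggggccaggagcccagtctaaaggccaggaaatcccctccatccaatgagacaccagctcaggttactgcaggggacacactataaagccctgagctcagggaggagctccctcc
FOXA1: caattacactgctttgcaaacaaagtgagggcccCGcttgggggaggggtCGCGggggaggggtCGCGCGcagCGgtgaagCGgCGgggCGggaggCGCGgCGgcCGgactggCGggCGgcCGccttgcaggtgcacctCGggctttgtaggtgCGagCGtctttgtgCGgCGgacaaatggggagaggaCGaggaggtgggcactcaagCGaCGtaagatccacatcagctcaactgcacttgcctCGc
UPK1B: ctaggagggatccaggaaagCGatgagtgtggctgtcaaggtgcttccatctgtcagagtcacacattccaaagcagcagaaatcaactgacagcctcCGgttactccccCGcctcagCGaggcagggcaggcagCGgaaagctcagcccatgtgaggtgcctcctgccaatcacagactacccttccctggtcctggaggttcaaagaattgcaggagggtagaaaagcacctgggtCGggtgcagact

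The FOXA1 window held 26 CG dinucleotides and 67.2% G and C, the ELF3 window 4 and 58.4%, and the UPK1B window 6 and 56.8%. Over 35116 such windows the median was 11 CG dinucleotides and 58.0% G and C, with at least 26 in 19.6% of windows and at most 4 in 34.3%. The only regulator promoters with 1 listed start are thus a CG-rich one and a CG-poor one, and both genes were higher in treated NS1 than in treated WT cells. The UPK1A window, at chr19:35666267-35666516, resembled that of ELF3, with 4 CG dinucleotides and 60.0% G and C.

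Both strands were searched for 6 motifs. The AP-1 string TGANTCA occurs in 6.57% of all these windows, and the string AGATAA, bound by factors of the GATA family, in 9.17%. The forkhead string TGTTTAC was found in 2.98% of the windows, while 8.52% of them hold the string CCGGAAG of the ETS factors. The grainyhead string AACCGGTT was rarer, at 0.117% of the windows, as was the direct repeat of PPAR with RXR, at 0.0171%. No string contains another, and none of them occurs in the ELF3, FOXA1, UPK1A or UPK1B windows. RefSeq lists 6 starts for PPARG, 6 for GATA3 and 2 for GRHL3. A GATA match was found at 1 PPARG start and at 1 GRHL3 start, where it occurred 2 times, and an AP-1 match and an ETS match at 1 GATA3 start each.

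Of 32 further luminal genes, 16 were tested. In NS1 cells 2 rose and 1 fell with the inducer, with a median log2 fold change of 0.37, where 6.15% of all genes were called and 2.76% rose. ERBB3, a receptor kinase of luminal tumours, rose by 1.97 (SE 0.48, edgeR adjusted p = 0.0299) from 0.607 ± 0.0985 to 2.46 ± 1.57 CPM (SD, n = 3 each), and ERBB2 rose by 0.36 (SE 0.1, adjusted p = 0.0458). FOXA2, a paralogue of FOXA1, fell by 1.49 (SE 0.4, adjusted p = 0.0421), from 7.18 ± 2.23 to 2.49 ± 0.919 CPM (SD, n = 3 each), while FOXA1 itself was not called. With the replicate block within each line 7 luminal genes were called higher and 1 lower, where that fit called 25.9% of all genes and 13% higher. Without replicate 1, where 2021 genes were called in all, the count was 5 and 1. Leaving out 1 library ended the call of ERBB3 in 5 of 12 fits (adjusted p up to 0.121), of ERBB2 in 8 (up to 0.165) and of FOXA2 in 7 (up to 0.157).

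Between the treated lines 8 of the 16 luminal genes were called higher in NS1 cells and 2 lower, with a median of 0.67, where 28.2% of all genes were called and 13.6% higher. Between the untreated lines 4 were called higher and 1 lower, with a median of 0.13, where 12.5% of all genes were called, so that the calls over all genes were also more numerous with the inducer. GATA2 was higher by 1.65 (SE 0.29) without and 2.13 (SE 0.3) with the inducer, at 4.47 ± 1.86 CPM in untreated WT and 14.4 ± 1.99 CPM in untreated NS1 cells (SD, n = 3 each). CD24, a surface glycoprotein, had 1 to 2 counts per library in untreated WT and 17 to 35 in untreated NS1 cells. BAMBI was higher by 2.19 (SE 0.42) and 2.48 (SE 0.42). The edgeR adjusted p was 0.00352 and 0.000243 for GATA2 and 0.00499 and 0.000852 for BAMBI. Both held in all 12 fits that left out 1 library.

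Keratins and other epithelial genes give the setting of these values. KRT8 and KRT18, keratins of simple epithelia, were abundant at 1880 ± 265 and 1100 ± 214 CPM in untreated WT cells (SD, n = 3 each). KRT20, a keratin of the outermost cells, CDH1, which encodes E-cadherin, and GRHL2 held at most 2 counts in any library. UPK3B had 0 to 9 counts. The uroplakins as a group of 5 summed to 2.22 to 2.53 CPM in untreated WT, 2.23 to 2.82 in treated WT, 0.988 to 2.04 in untreated NS1 and 2.27 to 2.82 CPM in treated NS1 cells.

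Of 21 basal genes, 9 were tested. In NS1 cells 3 fell and 0 rose with the inducer, with a median of 0.05, where 6.15% of all genes were called. COL17A1, a hemidesmosome collagen, fell by 2.23 (SE 0.39, edgeR adjusted p = 0.00719), ITGA6, a laminin receptor subunit, by 1.02 (SE 0.17, adjusted p = 0.00666) and CD44, a hyaluronan receptor, by 0.69 (SE 0.13, adjusted p = 0.0103). ITGA6 stood at 290 ± 23.7 CPM without and 143 ± 16.8 CPM with the inducer (SD, n = 3 each). With the replicate block within each line, which called 25.9% of all genes, 3 basal genes were called higher and 4 lower, and the same counts were found without replicate 1. Of 10 mesenchymal genes, 8 were tested and 1 rose, SNAI1 by 1.31 (SE 0.3, adjusted p = 0.0213), and with the replicate block within each line 4 were called higher. Between the treated lines, where 28.2% of all genes were called, SNAI1 was higher in NS1 cells by 2.63 (SE 0.33, adjusted p = 0.000121). CDH2, N-cadherin, was higher by 0.98 (SE 0.12, adjusted p = 8.65e-05), while VIM was lower (log2 -1.3, SE 0.19, adjusted p = 0.000268). The untreated lines already differed in these genes, where 12.5% of all genes were called. There SNAI1 was higher in NS1 cells by 1.15 (edgeR adjusted p = 0.0496) and CDH2 by 0.58 (0.00679), and VIM was lower (log2 -1.2, 0.00159). COL17A1 (log2 -1.06, 0.0337) and ITGA6 (log2 -1.02, 0.00282) were lower there too. Leaving out 1 library ended the inducer call of CD44 without treated NS1 replicate 3 (0.0601) and the inducer call of SNAI1 in 4 of 12 fits (up to 0.086). The inducer calls of COL17A1 and ITGA6 and the calls of SNAI1, CDH2 and VIM between the treated lines held in all 12. Between the untreated lines the call of SNAI1 was lost in 9 of 12 fits (up to 0.146) and that of COL17A1 in 6 (up to 0.116). Those of CDH2, VIM and ITGA6 held in all 12.

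The PPAR pathway was read through 35 receptors, partners and targets, of which 26 were tested. In NS1 cells 0 were higher and 1 was lower with the inducer, PPARD (log2 -0.53, SE 0.11, edgeR adjusted p = 0.0137), with a median of 0.16, where 6.15% of all genes were called. With the replicate block within each line 8 were called higher and 2 lower, in the fit that called 25.9% of all genes, and without replicate 1 the count was 3 and 1. RXRA stood at 90.1 ± 10.3 CPM without and 111 ± 14.3 CPM with the inducer in NS1 cells (SD, n = 3 each) and was not called. Between the untreated lines 3 of the 26 were called, where 12.5% of all genes were, and they were higher in NS1 cells, namely ANGPTL4, a secreted inhibitor of lipoprotein lipase, by 1.25 (SE 0.33, adjusted p = 0.0271), the coactivator PPARGC1B by 1.01 (SE 0.29, adjusted p = 0.0397) and PPARD by 0.62 (SE 0.11, adjusted p = 0.00357). FABP4 was higher there too, by 1.07. Leaving out 1 library ended the inducer call of PPARD without untreated NS1 replicate 2 (0.0695) or treated NS1 replicate 3 (0.0624), and the calls between the untreated lines in 5 of 12 fits for ANGPTL4 (up to 0.103) and 8 for PPARGC1B (up to 0.121).

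Between the treated lines 5 of the 26 PPAR pathway genes were higher in NS1 cells and 1 was lower, a share no larger than the 28.2% of all genes called there. ANGPTL4 was still higher, by 1.09 (SE 0.33, edgeR adjusted p = 0.0238), whereas FABP4 was lower (log2 -0.97, SE 0.18). PLIN4, a lipid droplet protein, was higher by 1.92 (SE 0.59, adjusted p = 0.0259), and ACSL3, an acyl-CoA synthetase, was lower (log2 -0.69, SE 0.16, adjusted p = 0.00655). With 1 library left out, ANGPTL4 lost its call in 5 of 12 fits (adjusted p up to 0.1) and PLIN4 in 3 (up to 0.0971), and ACSL3 in 0.

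Of 13 lipid binding protein genes listed beside FABP4, 8 held at most 3 counts in every library. Of these, 6 had 0 counts in all 12, and FABP5 alone of the 13 passed the filter. FABP5 fell in NS1 cells with the inducer by 0.82 (SE 0.16, edgeR adjusted p = 0.0103), from 85.5 ± 15.4 to 48.3 ± 9.79 CPM (SD, n = 3 each), and stood at 88.2 ± 9.13 and 89 ± 6.13 CPM in untreated and treated WT cells. Treated NS1 cells lay below treated WT cells (log2 -0.88, SE 0.16, adjusted p = 0.00129). Between the untreated lines FABP5 had a log2 difference of -0.04 and was not called. Among 14 paralogues of the regulators, 7 were tested, and in NS1 cells ELF1 rose by 0.51 (SE 0.11, adjusted p = 0.0175) and FOXA2 fell with the inducer, where 6.15% of all genes were called. With the replicate block within each line 2 paralogues were called higher and 1 lower, where 25.9% of all genes were called. With 1 library left out FABP5 held both calls in all 12 fits, and ELF1 lost its call in 4 (up to 0.0829).

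Markers of other cell types were read beside these values, since FABP4 is also made by fat cells, endothelium and macrophages. Of 5 adipocyte markers, ADIPOQ, LEP and CIDEC had 0 counts in all 12 libraries, 4 were at the floor, and the summed level ran from 2.4 to 4.01 CPM in untreated and 2.36 to 3.49 CPM in treated NS1 cells. Of 6 endothelial markers, KDR, CLDN5 and TEK were at the floor. PECAM1 rose by 3.19 (SE 0.75, edgeR adjusted p = 0.0251) with the inducer in NS1 cells, from 1 to 5 counts up to 21 to 34 counts per library. PECAM1 was not called between the untreated lines (log2 -2.51, SE 0.78, adjusted p = 0.051) or the treated lines (log2 1, SE 0.57, adjusted p = 0.21). The endothelial sum in NS1 cells moved from 0.247 to 1.31 up to 1.4 to 4.07 CPM. Of 7 macrophage markers 4 were at the floor, PTPRC had at most 1 count, and the sum, mostly CD68, was 8.39 to 16.3 CPM without and 11 to 15.7 CPM with the inducer. Of 6 fibroblast markers 4 were at the floor and DCN was at 0, while PDGFRB rose by 2.38 (SE 0.62, adjusted p = 0.0374), the sum moving from 2.53 to 5.45 up to 8.42 to 21.8 CPM. With 1 library left out, PECAM1 lost its call in 5 of 12 fits (adjusted p up to 0.0986) and PDGFRB in 8 (up to 0.145). The part of PECAM1 and PDGFRB in the rise of GATA3 and ELF3 was not tested.

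The genes whose log2 CPM ran most like each member over the 12 libraries were named by Pearson's r among 16519 genes with a mean of at least 1 CPM. These libraries share groups, replicate numbers and depth, and r is a description with no test. FABP4 ran most like HNRNPAB (r = 0.939), PPP5C (0.935) and POLR1G (0.92). PPARG ran most like EEF1A2 (0.988), PEX6 (0.963) and ID1 (0.963), GATA3 like MMP13 (0.981), BTG2 (0.981) and CAT (0.972), and FOXA1 like LGR5 (0.976), ANK3 (0.974) and H2BC19P (0.973). ELF3 ran most like ENSG00000249007 (0.982), MEGF6 (0.975) and PDGFRB (0.962), and UPK2 like LINC01836 (0.938), ENSG00000287765 (0.906) and TSPAN9 (0.899). No member was among the 3 genes nearest to another member.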

How the data were processed

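The authors deposited raw read counts in 1 table, whole numbers by gene, in which each of the 12 libraries has a column, and all columns were used. Per the labels' protocols, libraries were built from poly(A) RNA (NEBNext Ultra II) and read on a NextSeq. The submitters' processing notes name STAR 2.7.3a, featureCounts 1.6.4 and hg38. The annotation release and the use of strand are not given in the sources used here.

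Of 60603 gene identifiers, 60306 matched a symbol. Start and end are given where GENCODE release 29 (GRCh38) holds the same identifier version, and promoters are from RefSeq (GRCh38.p14), which matched 7 of the 10 genes. The model used edgeR 4.0.16 (R 4.3.3): filterByExpr over the 4 groups (17775 genes), TMM scaling, and 1 quasi-likelihood model (glmQLFit) with a mean per group. The 5 comparisons were two-sided glmQLFTest contrasts, with Benjamini-Hochberg adjustment over all genes and a threshold of 0.05. The standard error is the log2 fold change divided by the square root of F. DESeq2 1.42.0, other scalings, other filters, replicate blocks and omitted libraries were alternatives. The edgeR and DESeq2 fits without a block were also run on simulated counts with known changes in treated NS1 libraries. These counts held no other line difference and no replicate effect, and the replicate blocks were not run on them.

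Replicate numbers 1 to 3 are in the labels. Deviations from the group means correlated between untreated and treated libraries of the same number at 0.71, 0.39 and 0.38 in NS1 and 0.75, 0.38 and 0.26 in WT cells. The numbers were therefore used as pairs in the inducer comparisons. Deviations cancel out within a group, so a deviation of replicate 1 shared by both groups also raises the correlations of the other numbers. Libraries of unlike number were not compared, so pairing beyond replicate 1 is not shown by these values. Between the lines the correlations were 0.14, 0.072 and 0.19 without and 0.15, 0.12 and 0.006 with the inducer, so they do not pair libraries there. The lowest chi-square per degree of freedom between libraries of a group was 3.03, so none was merely the same library sequenced again. Libraries prepared separately from the same culture can also differ by more than counting error. Whether replicates were separate cultures was therefore not tested by this value.

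The 10 genes and all lists were chosen with earlier results of these data known. Beyond the 10 genes, the text names up to 3 called genes per list and comparison with the largest absolute log2 fold change and a mean of at least 1 CPM, and up to 3 genes most like each tested gene, by log2 CPM with a prior count of 2. Other genes were named after their values were seen (KRT8, KRT18, KRT20, CDH1, GRHL2, UPK3B, RXRA and markers at the floor).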

Additional observations from a re-analysis of the deposited data

Results flagged for a closer look

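The inducer response of FABP4 differed between the lines by -2.04 on the log2 scale. Each NS1 pair fell to between 0.246 and 0.355 of the untreated level, and the WT pairs stood at 0.932 to 1.61. This difference is what the gene was chosen for.

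GATA3 and PPARG had log2 interactions of 1.49 and 0.41. Every NS1 pair was higher with the inducer and every WT pair was lower for both genes, the pattern they were flagged for. The WT ratios of PPARG were 0.998, 0.986 and 0.891, of which 0.998 and 0.986 were nearly level. How many of all genes share this pattern was not counted. The difference in response between the lines did not pass without a block (edgeR adjusted p = 0.172 for GATA3 and 0.751 for PPARG). It passed with a replicate block within each line (edgeR adjusted p = 1.41e-05 and 0.0132).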

How the results depend on the processing

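The number of the 9 genes other than FABP4 that was called depended on the fit, and the main fit tested 5 of them. For the inducer in NS1 cells it was 2. With no filter on low counts it was 4, namely GATA3, ELF3, FOXA1 and a gene too low to test in the main fit. With at least 10 counts in every library (where ELF3 was not tested) it was 1, and it was 4 with the replicate block within each line. It ranged from 0 to 3 when a replicate number or a single library was left out, with 0 without replicate 2, without replicate 3, and without untreated NS1 replicate 1 or 3 or treated NS1 replicate 3. Between the untreated lines it was 0, and it was 1 with no filter, 1 with the replicate block (PPARG, adjusted p = 0.036, though the numbers do not pair the lines) and 0 to 2 with libraries left out, the 2 without replicate 1. Between the treated lines it was 4, and 0 to 4 with libraries left out, with 0 without replicate 2 and 0 without replicate 3. For the interaction it was 0, and it was 2 with no filter, 1 with DESeq2, 1 with the replicate block, 4 with the block within each line and 0 to 2 with libraries left out, the 2 without replicate 1. In WT cells it was 0 under each alternative. Without replicate 2 or 3, edgeR called 0 genes of all those tested for the inducer in NS1 cells, against 1093 with all libraries, 2421 with the replicate block, 4596 with the block within each line and 2021 without replicate 1. For the interaction over all genes, 4 were called, 375 by DESeq2, 683 with no filter, 33 with at least 10 counts in every library and 2495 with the block within each line. Between the untreated lines 2222 genes were called and 3908 (22%) with the replicate block. The unfiltered fit gave all genes 1 shared spread.

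Signs turned only for differences that were not called. UPK2 between the treated lines was 0.004 with at least 10 counts in every library, and FOXA1 in WT cells was 0.001 with the replicate block. With libraries left out, the inducer effect in WT cells ran from -0.6 to 0.65 for ELF3, -0.32 to 0.34 for FOXA1, -0.58 to 0.31 for GATA3, -0.44 to 0.3 for PPARG and -0.1 to 0.16 for UPK2. The difference between the untreated lines ran from -0.29 to 0.34 for GATA3 and -1.51 to 0.74 for ELF3, and that of UPK2 between the treated lines from -0.09 to 0.13. FABP4 kept its direction under all alternatives run, with a log2 change in NS1 cells of -1.94 to -1.68. It was chosen on its values in these same libraries, so this range is a description and no separate support. The fits of the gene lists with the block within each line, without replicate 1 and without single libraries were chosen after seeing the data. The causes were not tested. Depth limits GRHL3 and the uroplakins, which lie near or under the floor of 3 counts.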
